A study of Mus musculus with 12 samples.

Results

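Solute carriers are membrane proteins that move nutrients, neurotransmitters, ions and metals across the cell surface and the membranes of organelles, and the genes are named Slc with a family number. They were taken here as every gene with a probe whose annotation gave 1 gene symbol starting with Slc and a digit, with Slc38a1 left out, and with the brightest of the probes that had values on all arrays used standing for a gene that had several. This gave 105 genes on 126 of the 8734 probes. Of these genes 78 had values on all 10 arrays used and were tested, among 5713 such probes in all. The other 27 genes lacked values on some arrays and are described at the end. Although chosen by name, 3 of the 78 are no transporters: Slc9a3r1 and Slc9a3r2 are scaffold proteins that bind a sodium/proton exchanger, and Slc6a19os is a transcript opposite Slc6a19.

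In glia the carriers divide the work of keeping the brain's extracellular fluid constant. Astrocytes take up glutamate released at synapses, return glutamine to neurons, and buffer potassium, bicarbonate, calcium and phosphate, while zinc and iron carriers keep free metals low. Interleukin-1β (IL-1β) is an inflammatory cytokine that signals through the type I receptor encoded by Il1r1, and glia activated by such signals are known to use arginine, the substrate of nitric oxide synthase.

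The series compared primary mixed glial cells, cultures that hold astrocytes, microglia and other cells of the mouse brain together, from IL-1R1-/- mice and from wild-type mice. The 4 groups were IL-1R1-/- glia with 10 ng/ml rrIL-1β, IL-1R1-/- glia with vehicle, wild-type glia with 10 ng/ml rrIL-1β, and wild-type glia with vehicle, each for 4 hours and after 10 to 12 days in culture. The label of 1 IL-1R1-/- array writes IL-1β where the others write rrIL-1β. Each genotype had 3 biological replicates with paired treatments, read out with radio-labelled cDNA on arrays of 8734 probes. The labels give no strain, age or brain region. Both IL-1R1-/- columns of replicate 3 were left out because they repeat other columns up to a constant factor. The IL-1β column matched the IL-1R1-/- vehicle column of replicate 1 at 6531 of 6584 shared probes, and the vehicle column matched the wild-type vehicle column of replicate 1 at 5959 of 5982. Which of each pair is the original is not known, so results are also given without those first replicates where that matters. This left 3 wild-type cultures and 2 IL-1R1-/- cultures, 10 arrays, and that number limits the precision of every value below.

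Array medians ran from 4649 to 60399 intensity units, so the log2 values were quantile-normalized before testing. The IL-1β responses of neighbouring probes in the table resembled each other. In wild-type glia a probe and the next one correlated at 0.636 over all probes, and at 0.0509 after a smooth trend over the probes' inferred place on the printing plates was removed from each array. Each result is therefore given first in the quantile-normalized values and then with the position trend removed, and what the trend stands for was not tested. The genotypes overlapped at the Il1r1 probe, which was at 13.86 and 14.06 in IL-1R1-/- vehicle glia against 13.80, 14.07 and 13.73 in wild-type vehicle glia (log2 intensity). Where this probe lies relative to the deleted part of the gene was not analysed here, so it does not check the labels.

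Among 10 astrocyte markers 4 were measured (Slc1a2, Glul, Id4 and Sox9), and the log2 of their summed level ran from 16.68 to 17.30 in IL-1R1-/- IL-1β glia against 16.87 to 17.33 in IL-1R1-/- vehicle glia. In wild-type glia it ran from 16.64 to 16.82 with IL-1β against 17.50 to 17.59 with vehicle, without overlap. Id4, an inhibitor of differentiation, fell in wild-type glia (log2 -1.60 ± 0.19 SE, limma adjusted p = 0.0008, or 0.00156 without the position trend). Glul, the enzyme that makes glutamine, fell there too (-0.84 ± 0.20, limma adjusted p = 0.0291), but did not pass with the trend removed (-0.58, adjusted p = 0.112). The other measured astrocyte markers did not pass in wild-type glia. Sox9 had a response of -0.20 (limma adjusted p = 0.614), or -0.62 with the trend removed (0.0776). Slc1a2 went the other way, at 0.10 (limma adjusted p = 0.825), or 0.13 with the trend removed. Of the microglial, oligodendrocyte, neuronal, meningeal and endothelial or mural markers 5, 2, 2, 2 and 3 were measured, and 1 passed in wild-type glia, the endothelial gene Emcn (0.84, limma adjusted p = 0.0187, or 0.555 without the trend). The log2 of the summed microglial markers ran from 18.14 to 18.31 in IL-1R1-/- IL-1β glia against 18.39 to 18.74 in IL-1R1-/- vehicle glia. These ranges did not overlap, and the IL-1R1-/- vehicle range also lay above that of wild-type vehicle glia, 18.22 to 18.27. Wild-type IL-1β glia ran from 17.87 to 18.33. None of the microglial markers passed in limma in these comparisons. In such bulk cultures fewer cells of a type and less RNA per cell cannot be told apart, and the part of these markers in the transporter results was not tested.

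IL-1β raised 2 of the 78 solute carrier genes in wild-type glia, Slc1a5 and Slc24a5, and lowered 0. The test was limma on the 10 arrays with culture as a block, two-sided and adjusted over all 5713 probes at a threshold of 0.05. The 2 genes are 2.56% of the members, against 6.18% of all probes called in either direction, 4.55% called higher and 1.63% called lower. At an unadjusted p under 0.05 there were 9 members, or 11.5%, against 21.1% of all probes. Once the position trend was removed 0 members passed in limma, against 0.473% of all probes, and 6 members had an unadjusted p under 0.05, or 7.69% against 11.2%. The members' median response was -0.003 on the log2 scale against -0.04 for all probes. A difference of more than 0.5 on the log2 scale in either direction was seen in 4 members, or 5.13%, against 13.5% of all probes.

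Slc1a5, a sodium-dependent exchanger that brings glutamine and other neutral amino acids into cells, had the largest wild-type response of the 78. In IL-1R1-/- glia its log2 intensity was 16.13 and 15.65 in the IL-1β arrays of cultures 1 and 2, against 15.45 and 14.98 in their vehicle arrays. In wild-type glia it was 16.08, 15.75 and 14.99 with IL-1β in cultures 1 to 3, against 14.73, 14.14 and 14.41 with vehicle. The treated and vehicle values did not overlap in either genotype, and every culture was higher with IL-1β. The IL-1R1-/- differences were 0.68 and 0.67, a response of 0.67 ± 0.25 (SE, n = 2 pairs) that did not pass (limma adjusted p = 0.601). The wild-type differences were 1.35, 1.60 and 0.58, and the gene rose there by a mean of 1.18 ± 0.20 (SE, n = 3 pairs; limma adjusted p = 0.00984), 2.27-fold. The responses differed by -0.51 ± 0.32 (IL-1R1-/- minus wild-type), which did not pass either (limma adjusted p = 0.503).

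The Slc1a5 response was smaller once the place of its probe was taken into account. The 10 probes nearest to it had a median wild-type response of 0.40. With the trend removed the IL-1R1-/- response was 0.32 and the wild-type response 0.59 ± 0.16 (limma adjusted p = 0.143), with wild-type cultures at 0.98, 0.67 and 0.13. Without wild-type culture 1 the response was 1.09 (limma adjusted p = 0.0799), without culture 2 it was 0.97 (0.0657), and without culture 3 it was 1.48 (0.0026). Without culture 3 the gene also passed with the trend removed (0.82, limma adjusted p = 0.0421). When both first cultures were left out, the response was 1.09 (limma adjusted p = 0.0348).

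Slc24a5, a potassium-dependent sodium/calcium exchanger best known from pigment cells, was the other gene that passed. In IL-1R1-/- glia its log2 intensity was 14.14 and 14.38 with IL-1β against 13.92 and 13.98 with vehicle, a response of 0.31 (limma adjusted p = 0.811). It was 13.67, 15.01 and 14.26 in wild-type IL-1β glia against 13.30, 13.38 and 13.56 in wild-type vehicle glia. Every treated wild-type array was above every vehicle array, and culture 2 had by far the widest gap. The wild-type response was 0.90 ± 0.22 (SE, n = 3 pairs; limma adjusted p = 0.0312), 1.87-fold, and the 10 nearest probes had a median response of 0.54. With the trend removed it was 0.23 (limma adjusted p = 0.576), with cultures at -0.08, 0.55 and 0.24, and without culture 2 it was 0.54 (adjusted p = 0.193). The gene did not pass without wild-type culture 1 or without wild-type culture 3 either.

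Slc7a1, which imports arginine and lysine, was higher with IL-1β in every culture at the brighter of its 2 tested probes. In IL-1R1-/- glia the cultures differed by 0.33 and 0.08, a response of 0.21 (limma adjusted p = 0.852). Its log2 intensity was 14.46, 14.05 and 14.91 in wild-type IL-1β glia against 14.16, 13.75 and 14.13 in wild-type vehicle glia, and the groups overlapped because the cultures differ in level. The differences within wild-type cultures were 0.30, 0.31 and 0.78, and 0.39, 0.35 and 0.32 with the trend removed. The wild-type response of 0.46 ± 0.18 did not pass (limma adjusted p = 0.153), nor did 0.35 with the trend removed (0.265). The other tested Slc7a1 probe had IL-1R1-/- pairs of 0.33 and 0.22 and wild-type pairs of 0.47, 0.06 and -0.50, a wild-type response of 0.01. The probes thus disagree in wild-type culture 3 on direction, while with the trend removed the other probe was positive in each wild-type culture, at 0.30, 0.30 and 0.13.

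**Figure D1:**
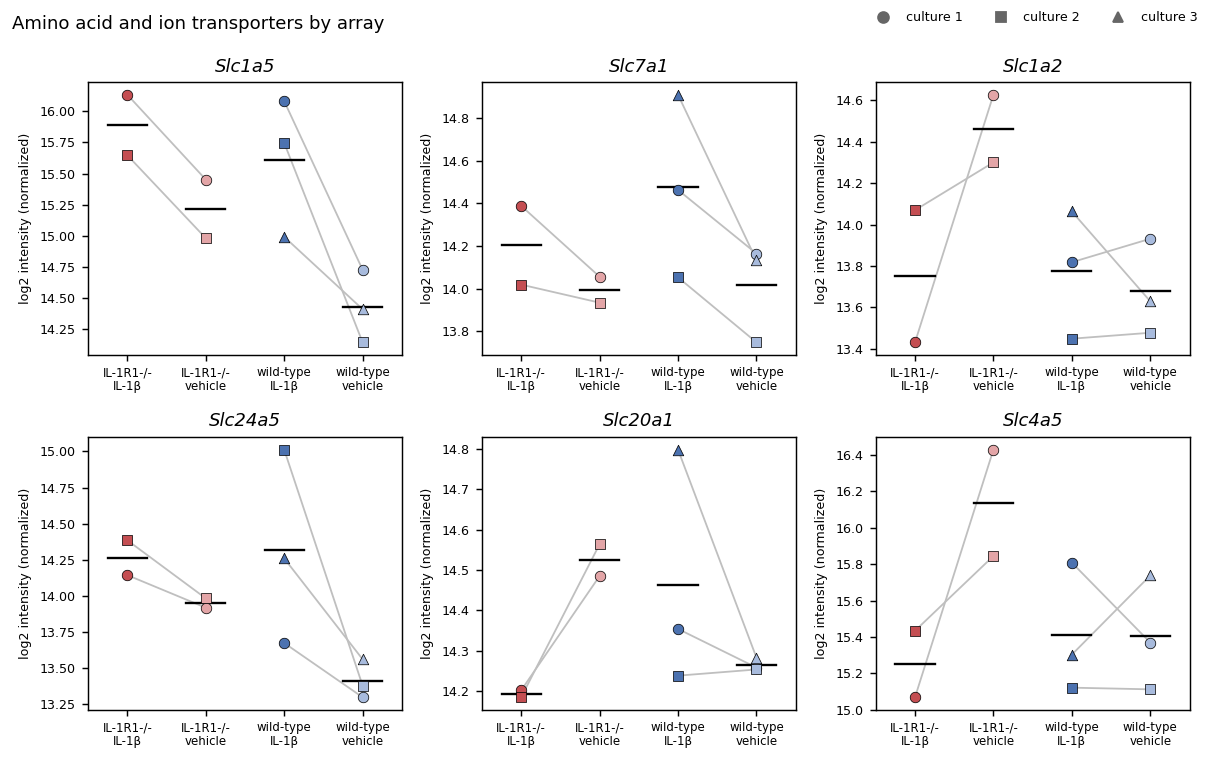
Log2 intensity (vertical axis, quantile-normalized) of 6 amino acid and ion transporter genes on each array of the 4 groups. Points are arrays, shapes are cultures, grey lines join the arrays of a culture and black bars are group means. Slc1a5, Slc24a5 and Slc7a1 are higher with IL-1β in each wild-type culture in these values, while Slc1a2 and Slc4a5 are lower with IL-1β in both IL-1R1-/- cultures.

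Promoter windows from RefSeq (GRCm38.p6), 250 bases before to 50 bases after a gene's start, matched 88 of the 105 genes, with 127 windows because some genes have several starts. They were searched on both strands for the AP-1 motif TGANTCA and for the NF-κB consensus, since IL-1β is known to activate both factors. The AP-1 letters were in 7.87% of the members' windows against 7.81% of all 32851 windows, and the NF-κB letters in 9.45% against 8.46%. A stricter NF-κB spelling searched first, GGGA and TTCC with any 2 bases between them, was in 0.787% against 1.47%, and the consensus was chosen after that result was seen. Of the 27 genes named by rule 20 had a window, and Slc1a5, Slc4a1, Slc10a3, Slc14a1, Slc39a4, Slc40a1 and Slc45a4 were not searched. Among the 20, Slc24a5 and Slc7a1 held an AP-1 match and are shown for that reason, with the match in capitals, while Slc29a1 and Slc35c2 held an NF-κB match. The Slc24a5 window is chr2:125067877-125068176 on the plus strand and the Slc7a1 window chr5:148399855-148400154 on the minus strand, each written 5′ to 3′. A match is a description of these letters and not a binding site.
Slc24a5: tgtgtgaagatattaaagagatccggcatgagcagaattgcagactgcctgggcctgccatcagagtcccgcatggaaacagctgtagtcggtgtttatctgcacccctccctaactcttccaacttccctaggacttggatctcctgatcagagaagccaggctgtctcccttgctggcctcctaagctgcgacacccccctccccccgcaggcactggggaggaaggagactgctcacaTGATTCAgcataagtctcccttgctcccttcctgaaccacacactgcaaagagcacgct
Slc7a1: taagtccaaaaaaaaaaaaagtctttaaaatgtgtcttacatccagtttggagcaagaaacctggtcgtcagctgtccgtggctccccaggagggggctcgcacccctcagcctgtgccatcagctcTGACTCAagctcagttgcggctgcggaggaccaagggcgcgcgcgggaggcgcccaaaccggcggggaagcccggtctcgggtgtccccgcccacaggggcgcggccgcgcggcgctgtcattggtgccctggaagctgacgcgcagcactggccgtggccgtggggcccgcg

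The amino acid carriers as a group did not move one way. Of 8 tested, 5 had a positive and 3 a negative wild-type response, with a median of 0.06 and a range from -0.12 to 1.18. Slc1a2, the main glutamate transporter of astrocytes, had log2 intensities of 13.43 and 14.07 in IL-1R1-/- IL-1β glia against 14.63 and 14.30 in IL-1R1-/- vehicle glia. Both IL-1R1-/- cultures were lower with IL-1β and their groups did not overlap, but culture 1 differed by -1.20 and culture 2 by -0.23. The response of -0.71 ± 0.25 (SE, n = 2 pairs) did not pass (limma adjusted p = 0.601), and with the trend removed it was -0.30. In wild-type glia Slc1a2 was at 13.82, 13.45 and 14.06 with IL-1β against 13.93, 13.48 and 13.63 with vehicle, a response of 0.10 (limma adjusted p = 0.825).

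Slc1a2 was also among the genes with the smallest p between the genotypes. Its vehicle levels in IL-1R1-/- glia lay above all 3 wild-type vehicle levels, by 0.78 ± 0.29 on average (limma adjusted p = 0.396), and by 0.60 with the trend removed. The difference of the responses was -0.81 ± 0.33 (IL-1R1-/- minus wild-type, limma adjusted p = 0.294). Culture 1 of the IL-1R1-/- glia, whose vehicle column recurs elsewhere in the series, carries much of these values, and without it the IL-1R1-/- response with the trend removed was 0.13.

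Of 10 ion carriers 9 had a positive wild-type response, against 2544 of all 5713 probes. Their median was 0.16, and 1 passed, Slc24a5. With the trend removed their median was 0.09 and 8 were positive, against 2895 of all 5713 probes. Slc8a1, a sodium/calcium exchanger of the cell surface, had IL-1R1-/- pairs of 0.34 and -0.36, a response of -0.009 (limma adjusted p = 0.997), against wild-type pairs of 0.04, 0.27 and 0.70, a response of 0.34 (limma adjusted p = 0.359). Slc20a1, a sodium/phosphate cotransporter, was at 14.20 and 14.19 in IL-1R1-/- IL-1β glia against 14.49 and 14.56 in IL-1R1-/- vehicle glia. The pairs of that genotype were alike, at -0.28 and -0.38, and the response was -0.33 ± 0.22 (limma adjusted p = 0.765), or -0.54 with the trend removed (0.495). In wild-type glia its response was 0.20.

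Slc4a5, a sodium/bicarbonate cotransporter, was at 15.07 and 15.43 in IL-1R1-/- IL-1β glia against 16.43 and 15.85 in IL-1R1-/- vehicle glia. In wild-type glia it was at 15.81, 15.12 and 15.30 with IL-1β against 15.37, 15.11 and 15.74 with vehicle. The IL-1R1-/- groups did not overlap, while the wild-type groups did. The IL-1R1-/- response was -0.89 ± 0.27 (limma adjusted p = 0.601) and the wild-type response 0.004, and the difference of -0.89 ± 0.35 did not pass (0.281). It was -0.77 with the trend removed (limma adjusted p = 0.445), and its 10 nearest probes had a median difference of 0.05. Culture 1 of the IL-1R1-/- glia, whose vehicle column recurs elsewhere in the series, had the wider gap. Over the alternatives run, the Slc4a5 difference ranged from -1.46 to -0.20. Slc4a1, the anion exchanger of red blood cells, differed the other way, by 0.57 (limma adjusted p = 0.398), which came to 0.005 with the trend removed. A second Slc4a1 probe, which lacked values in wild-type culture 1, was fitted with the gaps kept. The difference there was 0.17 (limma adjusted p = 0.84), or 0.07 with the trend removed.

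In IL-1R1-/- glia 0 of the 78 members passed in limma, as did 0% of all probes. At an unadjusted p under 0.05 there were 8 members, or 10.3%, against 7.6% of all probes, and with the trend removed 6 members, or 7.69% against 6.63%. The members' median was -0.08 against 0.01 for all probes. This count depended on the scaling. With the arrays centred on their medians in place of quantile normalization, 5 of the 78 members passed, all of them lower. In that setting 3.1% of all probes passed in either direction. With no normalization 3 members passed, against 2.68% of all probes in either direction. The 3 were Slc30a5, Slc44a1 and Slc4a5, and median centring added Slc23a2 and Slc25a47. Slc30a5, a zinc carrier of the secretory pathway, and Slc23a2, a vitamin C transporter, are given by name because their calls were seen.

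The trace metal carriers held the positive responses with the smallest p in IL-1R1-/- glia. Slc39a4, a zinc importer best known from the intestine, was at 16.55 and 16.04 with IL-1β against 15.16 and 15.34 with vehicle, and these groups did not overlap. The response was 1.05 ± 0.28 (SE, n = 2 pairs; limma adjusted p = 0.601), or 0.89 without the position trend (0.542). In wild-type glia it was at 16.63, 19.24 and 15.65 with IL-1β against 15.79, 19.58 and 15.27 with vehicle. Cultures 1 and 3 were higher with IL-1β, by 0.84 and 0.38, and culture 2, which stood far above all other arrays in both treatments, was lower (difference -0.34). The wild-type response was 0.29 (limma adjusted p = 0.498), or 0.68 with the trend removed (0.278).

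The high level in wild-type culture 2 also set the genotype difference of Slc39a4. In vehicle glia IL-1R1-/- minus wild-type was -1.63 ± 0.95 (limma adjusted p = 0.696), and without culture 2 the difference was -0.28. The 10 probes nearest to it deviated from their own means by a median of -0.06 in the IL-1β array of that culture and by 0.18 in its vehicle array, against 2.72 and 3.06 for Slc39a4.

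Slc30a9, a zinc carrier linked to mitochondria, was at 14.85 and 16.29 in IL-1R1-/- IL-1β glia against 14.19 and 15.02 in IL-1R1-/- vehicle glia. The groups overlapped because culture 2 was higher in both treatments, but both pairs were positive, at 0.66 and 1.28. The response was 0.97 ± 0.34 (limma adjusted p = 0.601), or 0.82 without the position trend (0.495). In wild-type glia the pairs were 0.46, 0.86 and -0.93, with a response of 0.13. A second Slc30a9 probe, which lacked values in wild-type culture 1, had IL-1R1-/- pairs of 0 and 0.62 with the gaps kept. Its pairs in wild-type cultures 2 and 3 were -0.24 and 0.66, opposite in sign to those of the first probe. Slc30a1, the zinc exporter of the cell surface, had wild-type pairs of 0.03, -0.17 and -1.07 and a response of -0.40 (limma adjusted p = 0.299). At a second Slc30a1 probe, with the gaps kept, wild-type cultures 2 and 3 had pairs of -0.06 and -0.02. The wild-type response there was -0.04, or 0.09 with the trend removed. Slc40a1, the iron exporter, lay between 13.60 and 14.17 on all 10 arrays and had responses of -0.10 in IL-1R1-/- glia and 0.03 in wild-type glia. Over the 8 trace metal carriers the median response was 0.15 in IL-1R1-/- glia and 0.01 in wild-type glia.

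**Figure D2:**
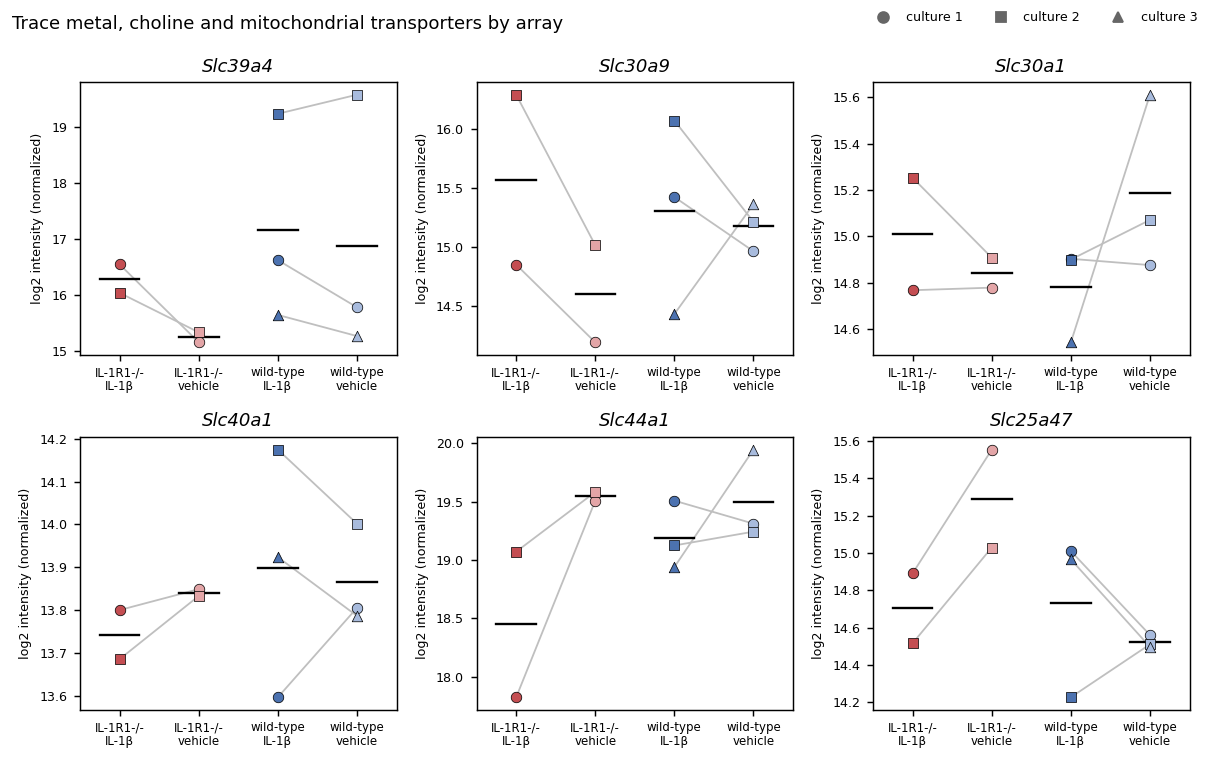
Log2 intensity (vertical axis, quantile-normalized) of 4 trace metal carriers, the choline carrier Slc44a1 and the mitochondrial carrier Slc25a47 on each array of the 4 groups. Points are arrays, shapes are cultures, grey lines join the arrays of a culture and black bars are group means. Wild-type culture 2 lies at 19.24 with IL-1β and 19.58 with vehicle for Slc39a4, above all other arrays.

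Among the 20 carriers of other organic solutes 9 had a positive and 11 a negative wild-type response, with a median of -0.02, and 0 passed in limma (2 at an unadjusted p under 0.05). Slc44a1, a choline transporter, was at 17.82 and 19.07 in IL-1R1-/- IL-1β glia against 19.51 and 19.58 in IL-1R1-/- vehicle glia. Both cultures were lower with IL-1β, by unequal amounts, at -1.69 and -0.51, and the groups did not overlap. The response was -1.10 ± 0.31 (limma adjusted p = 0.601), or -0.65 with the trend removed (0.714). In wild-type glia its levels were 19.51, 19.12 and 18.94 with IL-1β against 19.31, 19.24 and 19.95 with vehicle, a response of -0.31.

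Slc22a30, of a family that carries organic ions, came next after the called genes in wild-type glia. It was at 13.66, 14.98 and 14.12 with IL-1β against 13.05, 14.20 and 13.72 with vehicle, higher within each culture by 0.61, 0.78 and 0.40. The response of 0.60 ± 0.17 did not pass (limma adjusted p = 0.0564). Its 10 nearest probes had a median response of 0.55, and with the trend removed it was -0.04. Slc27a4, a fatty acid transport protein, was lower within each wild-type culture, at -0.19, -0.54 and -0.96, with a response of -0.56 ± 0.19 (limma adjusted p = 0.097) and nearest probes at -0.49. The Slc27a4 response was -0.17 with the trend removed. Slc44a2, a relative of Slc44a1, had a wild-type response of -0.46, with culture 3 at -1.14.

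Slc14a1, a urea channel, and Slc29a1, a nucleoside transporter that carries adenosine, are known from glia. Their responses were -0.17 and 0.15 in IL-1R1-/- glia against 0.02 and -0.18 in wild-type glia, with limma adjusted p-values of 0.577 or more. The brighter Slc14a1 probe, which lacked values in wild-type culture 3, gave 0.15 in IL-1R1-/- glia and 0.68 in wild-type glia with the gaps kept (wild-type pairs 0.22 and 1.15, limma adjusted p = 0.108), or -0.06 in wild-type glia with the trend removed. Other probes of Slc29a1 gave wild-type responses of 0.05 and -0.04. In the genotype comparison with IL-1β, Slc46a1, a folate transporter, was at 15.37 and 15.42 in IL-1R1-/- glia against 15.15, 14.39 and 14.92 in wild-type glia (0.57 ± 0.26, limma adjusted p = 0.953).

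Of 5 sugar carriers 4 had a negative wild-type response, against 3169 of all 5713 probes. Their median was -0.34. With the trend removed it was -0.003 and 3 were negative, against 2818 of all 5713 probes. Slc2a8, an intracellular glucose transporter, was lower in each culture, at -0.19, -0.15 and -0.96, and its response of -0.43 ± 0.19 did not pass (limma adjusted p = 0.216). Its pairs were also negative with the trend removed, at -0.16, -0.15 and -0.28. The 13 mitochondrial carriers had wild-type responses from -0.28 to 0.32 with a median of 0.03. The 7 Golgi and ER carriers had a median of -0.10 and the 4 vesicular and phosphate carriers one of -0.09. The 3 genes that are no transporters had responses from -0.15 to 0.004.

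Slc25a47, a mitochondrial carrier first known from liver, was at 14.89 and 14.52 in IL-1R1-/- IL-1β glia against 15.55 and 15.03 in IL-1R1-/- vehicle glia. Wild-type levels were 15.01, 14.23 and 14.97 with IL-1β against 14.56, 14.51 and 14.50 with vehicle. Both IL-1R1-/- cultures were lower with IL-1β, at -0.66 and -0.51, while wild-type culture 2 was lower and the others were higher. The difference of responses was -0.80 ± 0.30 (limma adjusted p = 0.269), or -0.57 with the trend removed (0.539). In vehicle glia the IL-1R1-/- cultures lay above all wild-type cultures, by 0.77 ± 0.28 (limma adjusted p = 0.384), or 0.68 with the trend removed (0.422).

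**Figure D3:**
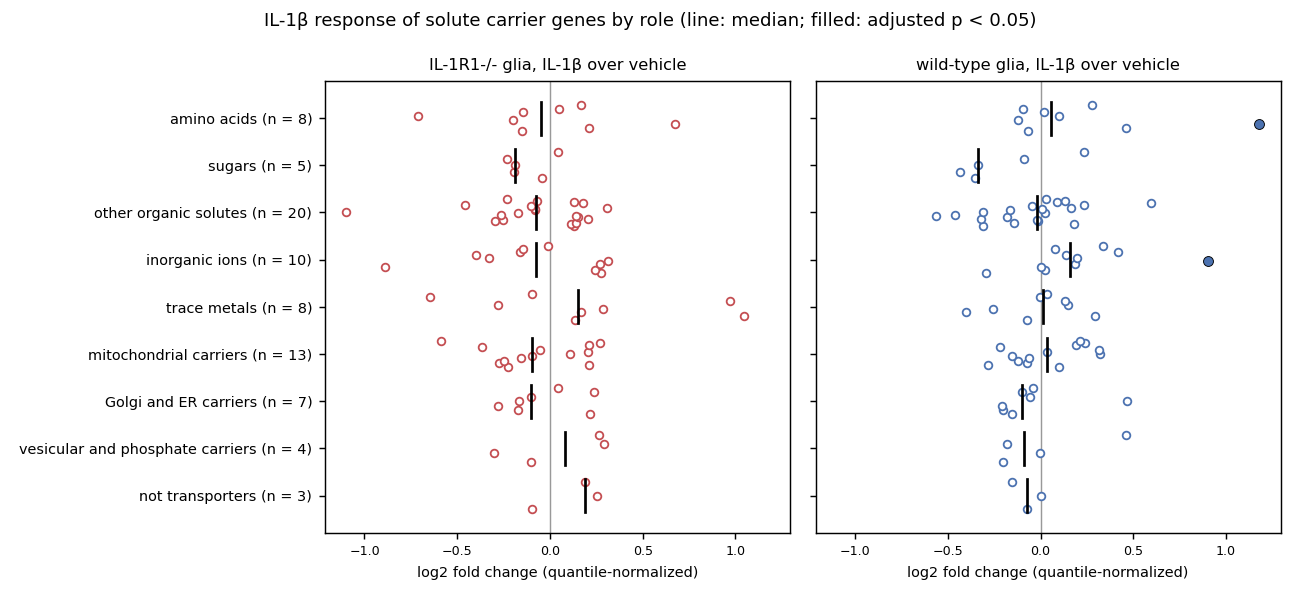
Response to IL-1β over vehicle (horizontal axis, log2 fold change of quantile-normalized intensities) of the 78 solute carrier genes by role, in IL-1R1-/- glia on the left and wild-type glia on the right. Open points are genes, filled points passed the adjusted threshold and black lines are medians. The filled points are Slc1a5 and Slc24a5 in wild-type glia.

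The difference of the responses passed in 0 of 78 members in limma, against 0.158% of all probes, and 4 members had an unadjusted p under 0.05, or 5.13% against 14.1%, and again 4 against 8.05% with the trend removed. With either other scaling 5 of the 78 members passed and were lower in IL-1R1-/- glia: Slc23a2, Slc25a47, Slc30a5, Slc44a1 and Slc4a5. Of all probes 4.62% passed in either direction with median centring and 4.2% with no normalization. Across the 78 genes the IL-1R1-/- and wild-type responses correlated at Pearson 0.246 and Spearman 0.13, as a description over genes that share arrays, against 0.0154 and -0.0228 over all probes. They had the same sign in 43 members, or 55.1%, against 50.5% of all probes.

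Between the genotypes 0 of 78 members passed in limma in vehicle glia, against 0.0175% of all probes, and 7 had an unadjusted p under 0.05, or 8.97% against 8.56% (5, or 6.41% against 7.58%, with the trend removed). Slc35c2, of a family of Golgi carriers, had the smallest p, at 14.25 and 15.36 in IL-1R1-/- vehicle glia against 13.93 ± 0.0611 in wild-type vehicle glia (SD, n = 3). All IL-1R1-/- values were above all wild-type values, and the difference was 0.88 ± 0.30 (limma adjusted p = 0.369), or 0.39 with the trend removed. With IL-1β 0 of 78 passed in limma, against 0.07% of all probes, and 2 had an unadjusted p under 0.05, or 2.56% against 4.97% (3, or 3.85% against 5.71%, with the trend removed, where 0.105% of all probes passed). Slc25a28, a mitochondrial iron importer, had the smallest p there, at 13.19 and 13.34 in IL-1R1-/- glia against 13.76, 13.98 and 13.86 in wild-type glia. These groups did not overlap either, with a difference of -0.60 ± 0.23 (limma adjusted p = 0.952), or -0.41 with the trend removed.

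Direction within cultures was counted next. In both IL-1R1-/- cultures 21 members were higher with IL-1β, or 26.9% against 31.9% of all probes, and 32 were lower, or 41% against 31.3%. After removal of the trend 23 were higher there and 16 lower, or 29.5% and 20.5%, against 29.4% and 28.4%, so the side with more members changed. With IL-1β 11 members were higher in all 3 wild-type cultures, or 14.1% against 19.3% of all probes, and 13 were lower in all 3, or 16.7% against 20.6%. With the trend removed 8 were higher and 8 lower in wild-type glia, or 10.3% each, against 15.3% and 14.9%. In wild-type glia Slc1a5, Slc7a1 and Slc23a4 were higher in both versions, and Slc2a8, Slc32a1, Slc35f5, Slc44a2 and Slc50a1 lower in both, named because they were seen to be so. The other tested Slc50a1 probe had wild-type pairs of 0.07, -0.51 and -0.32, or 0.14, -0.38 and 0.006 with the trend removed. Slc23a4 is a relative of the vitamin C transporters, Slc32a1 loads GABA and glycine into synaptic vesicles, and Slc50a1 is a sugar transporter.

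**Figure D4:**
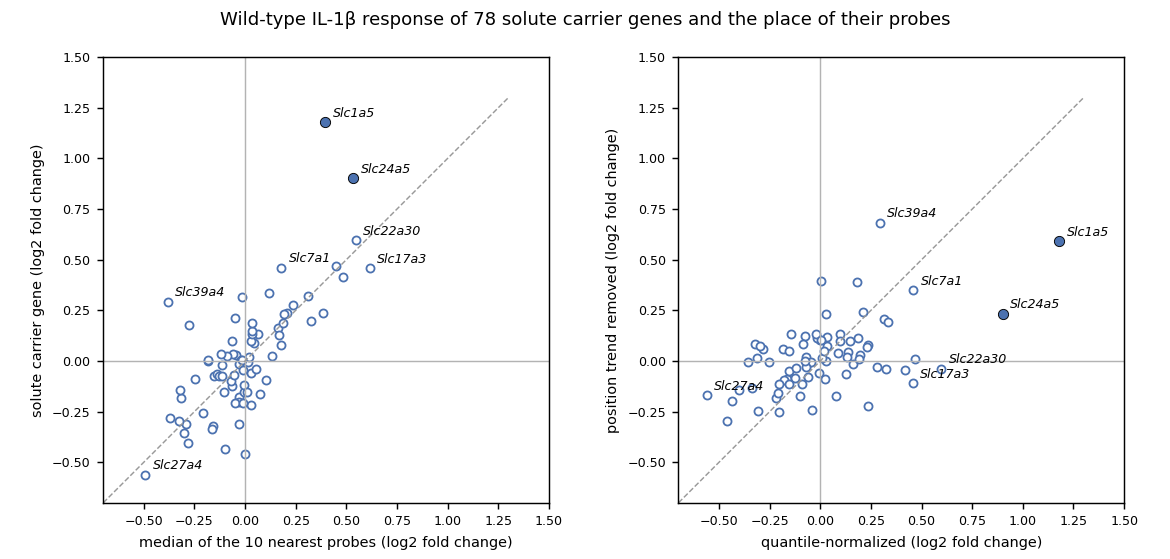
Wild-type IL-1β responses (log2 fold change) of the 78 solute carrier genes, against the median response of the 10 nearest probes in the table on the left, and with the position trend removed against quantile-normalized on the right. Each point is a gene, filled points passed the adjusted threshold and the dashed line marks equal values. Slc22a30 has 0.60 beside nearest probes at 0.55, and Slc24a5 lies at 0.90 and at 0.23 with the trend removed.

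A list of 37 transporters known from glia had 12 genes on the array and 9 tested: Slc1a2, Slc1a5, Slc7a1, Slc8a1, Slc14a1, Slc20a1, Slc29a1, Slc30a1 and Slc40a1. Of these 1 passed in wild-type glia, Slc1a5, against 6.18% of all probes, and 0 passed in limma there with the trend removed or in the other 4 comparisons. Of 34 partner genes of transport 5 were tested (Glul, Got1, Mt1, Tfrc and Trf). In wild-type glia Glul and Mt1, a metallothionein that binds zinc, fell. Mt1 had a response of -0.87 ± 0.22 (limma adjusted p = 0.0373), and -0.61 with the trend removed (0.181).

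Of the 27 genes with gaps, 20 had at least 2 arrays in every group and were fitted with the gaps kept, among 7457 probes. In wild-type glia 3 of the 20 passed, against 8.49% of all probes in that fit, each resting on 2 wild-type pairs. Slc25a1, the mitochondrial citrate carrier, had IL-1R1-/- pairs of 0.41 and 1.59 (response 0.999, limma adjusted p = 0.528). Its wild-type pairs were 0.76 and 1.31, with a wild-type response of 1.03 ± 0.28 (limma adjusted p = 0.042). With the trend removed the IL-1R1-/- response of Slc25a1 was 0.72 (limma adjusted p = 0.483). Slc2a2, a glucose transporter best known from liver and pancreas, had IL-1R1-/- pairs of 0.41 and 0.93 (response 0.67, limma adjusted p = 0.554) and a wild-type response of 0.92 (limma adjusted p = 0.04). With the trend removed the IL-1R1-/- response of Slc2a2 was 0.40. Slc25a11, the oxoglutarate/malate carrier, had IL-1R1-/- pairs of 0.39 and 0.16 and fell by 0.94 in wild-type glia (pairs -0.79 and -1.09; limma adjusted p = 0.030). After removal of the trend 0 of the 20 passed in limma, against 0.456% of probes, and these wild-type responses were 0.30, 0.18 and -0.51.

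Other genes with gaps had wild-type responses that did not pass. Slc3a2, the heavy chain that partners several amino acid exchangers, had wild-type pairs of -0.12 and -0.96, and Slc6a8, the creatine transporter, had 0.10 and 0.12. Slc11a2, an iron importer, had IL-1R1-/- pairs of 0.63 and 0.36 against wild-type pairs of -0.63 and -0.20 at its brighter fitted probe. The difference of 0.91, or 0.70 with the trend removed, did not pass (limma adjusted p = 0.208 and 0.457). Its other fitted probe had IL-1R1-/- pairs of 0.68 and -0.03 and wild-type pairs of 0.11 and -0.06. The difference there was 0.30 (limma adjusted p = 0.713), or -0.12 with the trend removed. The other 14 fitted genes were Slc13a4, Slc20a2, Slc22a5, Slc25a13, Slc27a1, Slc2a12, Slc2a6, Slc30a4, Slc35a3, Slc35c1, Slc36a1, Slc39a8, Slc6a12 and Slc9a7, with wild-type responses from -0.73 for Slc20a2 to 0.46 for Slc30a4. For the difference of the responses 0 of the 20 fitted genes passed in limma, against 0.402% of all probes in that fit. The largest differences (IL-1R1-/- minus wild-type) were 1.22 for Slc25a11, 1.16 for Slc39a8 and 0.95 for Slc35a3. With the trend removed they were 0.51, 0.61 and 0.28. The 7 genes with too few arrays to fit were Slc10a7, Slc15a4, Slc25a40, Slc27a2, Slc4a2, Slc66a1 and Slc6a18. Slc6a18, an amino acid transporter known from kidney, had a single IL-1R1-/- pair, at 0.35, and wild-type pairs of 0.69, 0.87 and 0.33. Slc4a2 and Slc66a1 were lower in each wild-type culture, at -0.33, -0.22 and -0.52 and at -0.33, -0.14 and -0.36. Their single IL-1R1-/- pairs were -0.12 and 0.21.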

How the data were processed

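The deposited values are linear spot intensities, 1 column for each of 12 arrays, and the authors' software, background correction and normalization were not given in the sources used here. Per the labels' protocols, RNA extracted with TRIzol was freed of DNA and copied into cDNA that carried a radioactive label. Of 8734 probes 7153 had 1 symbol in the platform annotation, 387 several and 1194 none, and 5713 (65.4%) had values on all 10 arrays used. The deposited intensities were turned to log2 and quantile-normalized between arrays, because array medians differed. limma 3.58.1 (R 4.3.3, statmod 1.5.0) fitted each probe with a block for culture and, in each genotype, an IL-1β term, as the design text states paired treatments. Genotypes were compared in a fit of the 4 group means where culture was a random block, at a correlation of 0.388 (0.464 with the trend removed). Two-sided p-values were adjusted over all probes (Benjamini-Hochberg), with a threshold of 0.05. SE is the fit's standard error. The NF-κB consensus, with ambiguity letters, replaced a stricter spelling after that one's result was seen.

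The arrays of a culture deviated together from their group means, at r of 0.562 for IL-1R1-/- (with 2 cultures, 1 value) and 0.468, 0.582 and 0.261 for wild-type cultures. The position trend was a loess curve (span 0.2) of each array's deviation over the row and column of an inferred layout of 23 plates of 384 wells, 16 by 24, with a step after plate 11. The wild-type fit was also run on simulated data with known changes. Named genes were those past the threshold, the 3 per direction with the smallest p in each comparison, and the tested genes of the glial list, 27 in all. Genes picked for a small p tend to have groups that do not overlap, most easily with 2 arrays in a group. Statements of overlap therefore describe the values and lend no support, and the share over all probes was not counted. The members, lists and alternatives were chosen with earlier results of these data known. The alternatives were other scalings, gaps kept, dim probes left out, other priors, no block, all 12 columns, another choice of probe, and each culture left out. Slc38a1 was left out by the rule that chose the genes.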

Additional observations from a re-analysis of the deposited data

Results flagged for a closer look

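Slc29a1, a nucleoside transporter, had opposite signs in the genotypes in every culture at the brightest of its 3 tested probes. Its IL-1β response was 0.12 and 0.18 in the IL-1R1-/- cultures against -0.18, -0.07 and -0.30 in the wild-type cultures, a difference of 0.34 on the log2 scale. That difference did not pass limma's test (adjusted p = 0.604). With the position trend removed the pairs were 0.02 and -0.02 in IL-1R1-/- glia against -0.25, 0.07 and 0.37 in wild-type glia and no longer had opposite signs. At its other probes the signs did not separate the genotypes, with pairs of 0.20 and 0.04 in IL-1R1-/- glia against 0.02, -0.0019 and 0.13 in wild-type glia at one, and 0.59 and 0.09 against -0.53, 0.13 and 0.27 at the other.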

How the results depend on the processing

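The 10 arrays, the copied columns and the lack of detection values limit every result, and a p that missed the threshold does not show that levels were alike. The count of members called in wild-type glia, 2, was 5 with gaps kept, 1 on all 12 columns (where Slc1a5 was incomplete), 1 without the dimmest 25% of probes (Slc24a5 was not tested there), and 3 with no normalization, median centring or an intensity trend in the prior (Slc22a30 added). It was 0 with the trend removed, with gaps kept and the trend removed, with the unmoderated test, and with no replicate block, with and without the trend. For Slc1a5 the fit with no replicate block gave an adjusted p of 0.169. Leaving out 1 culture gave 0 to 2, and 0 to 1 with the trend removed. Without both cultures whose vehicle columns recur it was 2, an alternative that, like gaps kept with the trend removed, was chosen after seeing the data. In IL-1R1-/- glia the count of 0 was 3 with no normalization and 5 with median centring, and for the difference of responses it was 5 with each. Both genotype counts were 0 under all alternatives run, for which the pair of first cultures left out together gave no value.

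Some single values changed sign, and the cause was not tested. Slc22a30 in wild-type glia was -0.039 with the trend removed, with and without the block, and -0.037 with gaps kept as well. With a culture left out as well it was -0.039 (either IL-1R1-/- culture), -0.072 and -0.064 (wild-type cultures 1 and 2). With no normalization the median of all probes shifted to 1.80 (vehicle) and 1.78 (IL-1β) between genotypes. In vehicle glia Slc27a4 was 1.54, Slc39a4 0.54 and Slc39a10 1.51 there, and with IL-1β Slc25a28 was 1.19, Slc44a1 1.24 and Slc25a33 1.46. With the trend removed, the difference of responses of Slc27a4 was -0.039 with gaps kept, -0.061 without IL-1R1-/- culture 1 and -0.060 without wild-type culture 3. That of Slc39a4 was -0.35 without IL-1R1-/- culture 1 and -0.16 without wild-type culture 2, and that of Slc4a1 was -0.055 without IL-1R1-/- culture 1, -0.060 without wild-type culture 1 and -0.15 without wild-type culture 2. Also with the trend removed, Slc1a2 in IL-1R1-/- glia was 0.13 and Slc44a1 between genotypes with IL-1β 0.036 without IL-1R1-/- culture 1, and Slc35c2 in vehicle glia was -0.034 without IL-1R1-/- culture 2.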
